A study of Mus musculus with 6 samples.

Results

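The Gimap genes (GTPases of immunity-associated proteins) of the mouse were described in RNA from LT-HSC, the long-term blood stem cells of bone marrow, which can restore every blood lineage. The members were 8 genes chosen by name, Gimap1 and Gimap3 to Gimap9, out of 22180 genes named on the arrays. Each was read by the probe set that carries its symbol alone, and for Gimap1, which had more than 1 such probe set, by the one with the highest mean over the 6 arrays. All 8 had a probe set, and all 8 passed the filter on dim genes. The tested samples were 3 arrays of LT-HSC from pools of animals expressing NPMc+, a mutant nucleophosmin that is found in the cytoplasm instead of the nucleolus. They were set against 3 arrays of LT-HSC from pools of control animals. Both groups were of strain C57/BL6, and in both the cells were sorted from bone marrow 4 months after a transplant. The promoter or allele that drove the mutant protein, the age and sex of the animals and the number pooled are not stated in the labels. The comparison asked how expression in stem cells that carry the mutant protein differs from that in control stem cells.

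GIMAP proteins are a family of small GTP-binding proteins that share a GTPase domain and sit mostly on the membranes of organelles. They are known above all from lymphocytes, where several members set how long resting T and B cells survive. In the mouse, loss of Gimap5 or of Gimap1 strongly reduces the number of mature lymphocytes. Gimap3 and Gimap5 are close relatives that have been found to bind proteins of the Bcl2 family, which control programmed cell death. The genes form a single cluster on chromosome 6 with no other protein-coding gene between them, in the order Gimap8, Gimap9, Gimap4, Gimap6, Gimap7, Gimap1, Gimap5 and Gimap3. Gimap6 and Gimap3 are read from the minus strand and the 6 others from the plus strand (RefSeq, GRCm38.p6).

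The stretches around the start sites of Gimap3, Gimap4 and Gimap5 are shown because these were the members whose level was lower in NPMc+ by the test used below. Each runs from 250 bases before to 50 bases after the start of the gene, 5′ to 3′ on the strand of the gene, from RefSeq (GRCm38.p6). They lie at chr6:48770802-48771101 on the minus strand for Gimap3, at chr6:48684328-48684627 on the plus strand for Gimap4 and at chr6:48745947-48746246 on the plus strand for Gimap5. Capitals mark AGGAAG, a core letter sequence bound by ETS transcription factors, on either strand.
Gimap3: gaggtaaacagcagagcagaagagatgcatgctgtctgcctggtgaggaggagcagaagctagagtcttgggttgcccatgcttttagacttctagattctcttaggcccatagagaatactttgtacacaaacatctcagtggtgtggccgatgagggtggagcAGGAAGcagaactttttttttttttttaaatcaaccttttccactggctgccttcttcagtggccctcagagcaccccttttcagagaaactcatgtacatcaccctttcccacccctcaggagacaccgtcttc
Gimap4: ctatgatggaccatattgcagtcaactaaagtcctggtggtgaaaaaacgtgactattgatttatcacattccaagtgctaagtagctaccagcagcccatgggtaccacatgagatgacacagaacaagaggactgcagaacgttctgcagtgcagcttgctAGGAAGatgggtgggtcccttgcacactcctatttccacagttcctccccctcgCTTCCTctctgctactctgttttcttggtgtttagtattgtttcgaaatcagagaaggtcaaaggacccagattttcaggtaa
Gimap5: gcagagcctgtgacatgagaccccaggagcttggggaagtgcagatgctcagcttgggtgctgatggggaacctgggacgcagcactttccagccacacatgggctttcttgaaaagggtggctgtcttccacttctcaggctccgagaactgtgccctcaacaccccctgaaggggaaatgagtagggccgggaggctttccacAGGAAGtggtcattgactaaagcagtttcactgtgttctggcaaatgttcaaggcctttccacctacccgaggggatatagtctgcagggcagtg

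In these windows the letters AGGAAG start at position -85 in Gimap3, at -87 and -33 in Gimap4 and at -45 in Gimap5, counted from the gene's start as +1. Over the whole family, 7 of the 8 genes and 7 of their 9 windows held AGGAAG on either strand (Gimap8 has 2 windows), where 35.4% of all 32851 promoter windows did. The match was not limited to members that were lower: Gimap9, Gimap1, Gimap7 and Gimap8 held it too. The Gimap6 window did not hold these exact letters. Other letters looked for on both strands were TGTGGT (a Runx core, in 3 Gimap genes and 16.8% of all windows), CTTTGA (a TCF/LEF core, in 2 genes and 16.0%), CAGGTG (an E-box of E proteins, in 1 gene and 20.2%), the GATA factor core AGATAA (in 0 genes and 11.2%) and the core promoter letters TATAAA (in 1 gene and 13.6%). Gimap4 held the Runx and the TCF/LEF letters, whereas Gimap3 and Gimap5 held none of these 5. Only exact letters were looked for, so other forms of the sites that ETS, GATA or the other factors bind were not counted. None of the AGGAAG matches overlapped another motif. The windows held 2 to 8 CpG dinucleotides each, against a median of 7 over all windows, and their GC content was 43.3% to 57.3% against a median of 52.7%.

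Values below are log2 units. A level is the array value of a probe set and cannot be set against the level of another probe set, and a difference is NPMc+ minus control, so that -1 stands for a halved level. Arrays carry a number from 1 to 3 in each group. In the deposited table the mean of the same-numbered NPMc+ and control arrays was identical for numbers 1, 2 and 3 within 0.001 in 100% of 41345 probe sets, so an effect of the number had been taken out and the independent spread lies in the 3 differences within pairs. It follows that both groups have the same SD for each gene, and that the groups do not overlap exactly when the 3 differences have 1 sign. An SD or range within a group thus reflects only the spread of the 3 differences. It does not measure the spread between the pools of a group. Array medians were 3.90 to 3.99. Of genes that mark LT-HSC, Mecom had a mean of 7.22 in NPMc+ and 5.89 in control and Angpt1 10.02 and 9.05, while Procr, which marks early stem cells on their surface, had 5.41 and 5.33, all above the filter level of 3.01. The pools differed in sex-linked transcripts, with Xist at -5.44, -5.39 and 0.48 in pairs 1, 2 and 3, and the Y chromosome genes Uty at 4.68, 0.93 and 0.35, Kdm5d at 3.48, 1.29 and -0.67 and Eif2s3y at 5.49, 0.36 and -0.79.

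Of the 8 Gimap genes, 3 were lower in NPMc+ and 0 higher when a gene was called at an unadjusted p under 0.05 in limma, a linear model fitted over 16635 genes with the pair as a block. Among all genes tested, 3.02% were lower and 5.95% higher by the same rule. None of the 8 passed at an adjusted p under 0.05 (Benjamini-Hochberg over all genes), nor did any other gene (0%). The 3 lower members were Gimap3, Gimap4 and Gimap5, at 2.43-fold, 2.24-fold and 1.45-fold. Without pair 1 the count was 1, Gimap3, and without pair 3 it was 2, Gimap3 and Gimap6. Counted by sign alone, 6 of 8 members had a negative mean difference, against 45.1% of all genes, and 4 of 8 were below control in 3 of 3 pairs, against 12.8%. No member was above control in 3 of 3 pairs, against 17.4% of all genes. In a bulk sample such as these, fewer cells of a type and less RNA per cell cannot be told apart.

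**Figure D1:**
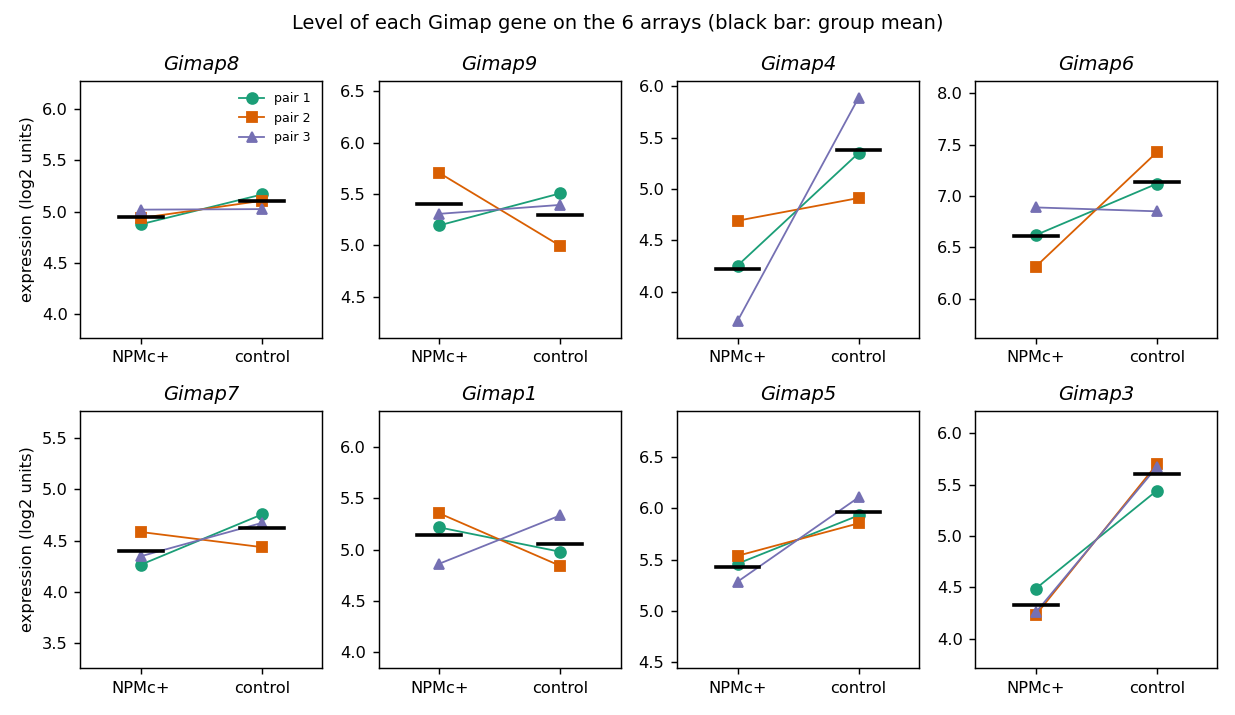
Level of each Gimap gene in log2 units on the NPMc+ (left) and control (right) arrays, in chromosome order. Lines join same-numbered arrays and black bars are group means. Each panel spans 2.5 log2 units. The lines of Gimap3 run close together, from 4.23 to 4.49 in NPMc+ and 5.44 to 5.70 in control, while for Gimap9 and Gimap1 the NPMc+ and control values overlap.

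Gimap3, whose protein is anchored in organelle membranes and was found to bind Bcl2 family proteins, had the largest difference of the family. Its level was 4.49, 4.23 and 4.26 in the NPMc+ pools 1, 2 and 3, against 5.44, 5.70 and 5.68 in the control pools. The highest NPMc+ value lay well below the lowest control value. The range within a group was 0.26 at most, and the SD of the 3 differences within pairs was 0.28. The mean was 4.33 ± 0.14 in NPMc+ and 5.61 ± 0.14 in control (SD, n = 3 each), a difference of -1.28 ± 0.20 (SE; 95% interval -1.75 to -0.81). The limma p was 4.26e-04 unadjusted, rank 27 of the 16635 genes, and 0.249 adjusted. By size, the difference ranked 75 from the lowest over all genes, of which 0.92% were lower by more than 1 unit. It was -0.95, -1.47 and -1.42 in pairs 1, 2 and 3, where Xist differed by -5.44, -5.39 and 0.48. The part of the sex of the animals in the Gimap differences was not tested. Leaving out 1 pair at a time kept Gimap3 between -1.44 and -1.19, with unadjusted limma p-values of 0.00149 to 0.00269.

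Gimap5, the closest relative of Gimap3 in the cluster and a gene whose loss shortens the life of lymphocytes and of blood stem cells in mice, was lower by a smaller amount. Its level was 5.46, 5.54 and 5.28 in NPMc+ pools 1 to 3, against 5.93, 5.85 and 6.11 in control pools. The groups did not overlap, and every pair had NPMc+ below control, with differences of -0.47, -0.32 and -0.82. The mean was 5.43 ± 0.13 in NPMc+ and 5.96 ± 0.13 in control (SD, n = 3 each), a difference of -0.54 ± 0.19 (SE; 95% interval -0.997 to -0.08; limma p 0.0288 unadjusted and 0.510 adjusted). This call depended on single pairs. The difference was -0.57 without pair 1 and -0.39 without pair 3, where the unadjusted limma p was 0.0837 and 0.155, and with an intensity trend in the prior p was 0.0508. Whether the probe sets of Gimap3 and Gimap5 read each other's transcript was not tested, since no probe sequences were used here.

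Gimap4, which is known to speed up the death of T cells in culture, was lower by nearly as much as Gimap3, with far more scatter between pairs. Its level was 4.25, 4.69 and 3.71 in NPMc+ pools 1 to 3, against 5.35, 4.91 and 5.89 in control pools. Control was higher in every pair, but the difference was -1.10, -0.22 and -2.18 in pairs 1 to 3, from a small step in pair 2 to the widest of any member in pair 3. The mean was 4.22 ± 0.49 in NPMc+ and 5.38 ± 0.49 in control (SD, n = 3 each), a difference of -1.16 ± 0.36 (SE; 95% interval -2.02 to -0.31; limma p 0.0153 unadjusted and 0.457 adjusted). Without pair 3 the difference was -0.66 with an unadjusted limma p of 0.0582, and without pair 1 it was -1.20 with p 0.0509. Without pair 2 it was -1.64.

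Gimap6, a partner of the autophagy machinery, did not pass the test with all pairs. Its level was 6.62, 6.31 and 6.89 in NPMc+ pools 1 to 3, against 7.12, 7.43 and 6.85 in control pools. The third pair had no gap to speak of, with a difference of 0.04, and its NPMc+ array lay above its control array. The difference was -0.53 ± 0.25 (SE; 95% interval -1.13 to 0.08; limma p 0.0792 unadjusted and 0.617 adjusted), almost the size of that of Gimap5. Without pair 3 it was -0.81 with an unadjusted limma p of 0.0193, and without pair 2 it was -0.23.

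**Figure D2:**
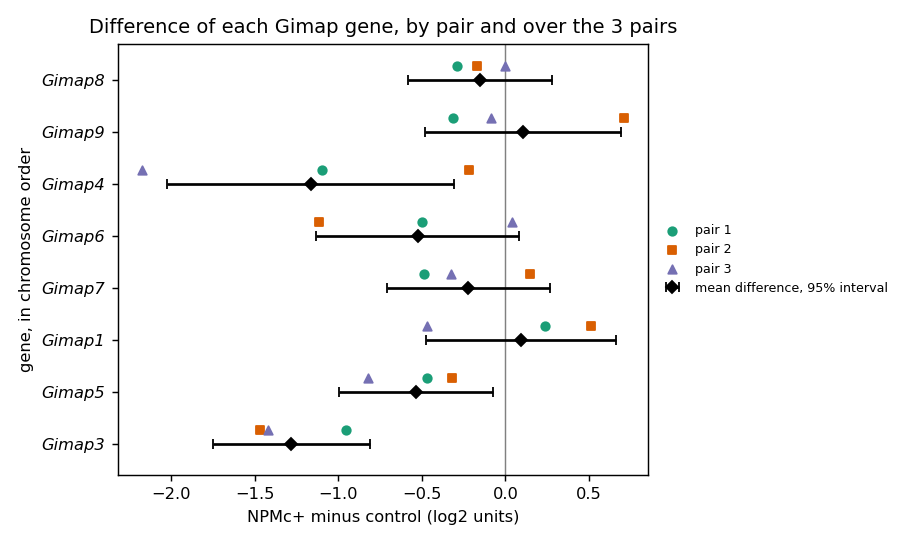
NPMc+ minus control in log2 units for each Gimap gene, in chromosome order from top to bottom. Coloured points are the 3 pairs, and diamonds with bars are the mean and its 95% interval from the limma fit. The intervals of Gimap3, Gimap4 and Gimap5 lie below 0, and those of the 5 other genes include 0.

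The 4 other members differed by less than 0.3 units on average. Gimap7, a GTPase whose human form becomes active as it pairs with another copy, had levels of 4.26, 4.58 and 4.35 in NPMc+ and 4.75, 4.44 and 4.67 in control. The groups overlapped, because pair 2 went the other way. Its difference was -0.22 (95% interval -0.71 to 0.26; limma p 0.312). Gimap8, the largest protein of the family, with repeated GTPase domains, had levels of 4.88, 4.94 and 5.02 in NPMc+ and 5.17, 5.11 and 5.02 in control. The groups did not overlap, yet in pair 3 the difference was only -0.0054, and the difference was -0.15 (95% interval -0.58 to 0.28; limma p 0.420).

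Gimap1, which is needed for the survival of mature T and B cells in mice, and Gimap9 were the members with a positive mean difference. Gimap1 had levels of 5.22, 5.36 and 4.86 in NPMc+ and 4.98, 4.84 and 5.33 in control. Pairs 1 and 2 were higher and pair 3 was lower in NPMc+. The difference was 0.09 (95% interval -0.48 to 0.66; limma p 0.708). A dimmer probe set of Gimap1, with a mean level of 2.76, differed by -0.26, and the mean of both probe sets by -0.084, so the sign depends on the probe set. Gimap9 had levels of 5.19, 5.71 and 5.31 in NPMc+ and 5.51, 5.00 and 5.39 in control. Only pair 2 was higher in NPMc+, by 0.71, and the difference was 0.10 (95% interval -0.48 to 0.69; limma p 0.684). Each of these 4 intervals includes, on 1 side of 0, a difference of the size seen for Gimap5, so none of these 4 genes is shown to be unchanged, nor was any of them tested against Gimap3.

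Along the cluster the lower members were not contiguous. Gimap5 and Gimap3 lie side by side at one end, and Gimap4 lies between Gimap9 and Gimap6, which differed by 0.10 and -0.53. Outside the cluster, among the 10 nearest protein-coding genes on each side, 14 of 20 were tested. By the same limma rule 0 were lower and 3 higher, against 3.02% and 5.95% of all genes. The 3 were Lrrc61 (0.97), Zfp746 (0.70) and Tmem176b (0.64), the last of which is the first gene beyond Gimap3. The median difference of these neighbours was 0.22, against -0.37 for the Gimap genes and 0.03 for all genes tested.

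The family's median difference was -0.48 in pair 1, -0.19 in pair 2 and -0.40 in pair 3, where the medians of all genes tested were 0.0025, 0.049 and 0.030. In pair 1, 7 of 8 members were below control, against 49.5% of all genes. Pair 2 had 5 of 8 below, against 45.5%, and pair 3 had 7 of 8, against 46.9%. The members did not share 1 order over the pairs: Gimap4, Gimap5 and Gimap1 were lowest relative to control in pair 3, Gimap3 and Gimap6 in pair 2, and Gimap7, Gimap8 and Gimap9 in pair 1. The 6 genes whose differences over the 3 pairs lay nearest to the family's medians were B230312C02Rik, Pea15b, 9530077C05Rik, Gm15032, Fezf1 and Acot6, at root mean square distances of 0.025 to 0.051. Their own mean differences were -0.38 to -0.31, and with 3 pairs such a likeness is a description only.

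**Figure D3:**
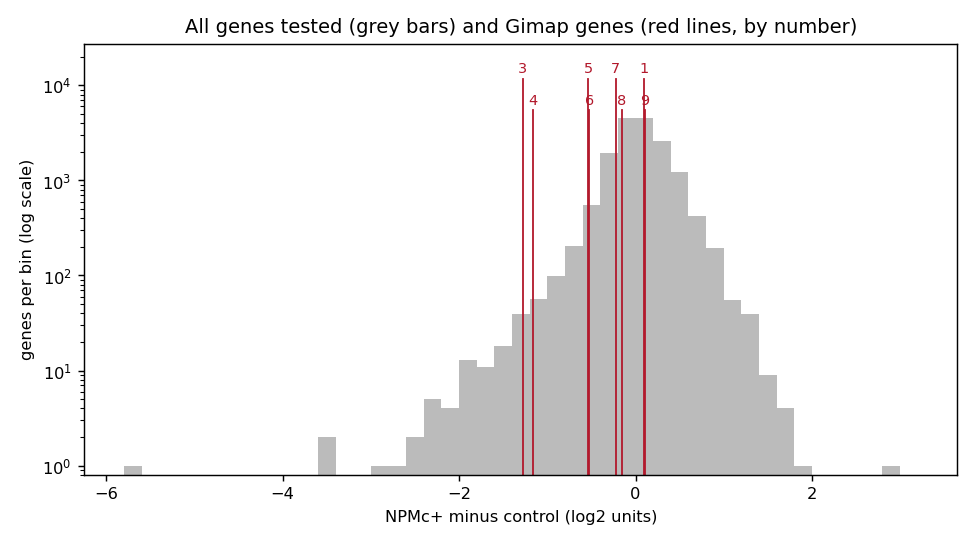
Number of genes (log scale) by NPMc+ minus control in log2 units over the 16635 genes tested, in bins of 0.2. Red lines, labelled with the number of the Gimap gene, mark the 8 members. Gimap3 and Gimap4 lie in the lower tail, at -1.28 and -1.16, and Gimap1 and Gimap9 near 0.

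Lists of cell type markers and of LT-HSC identity genes were read beside the Gimap genes and did not all go 1 way. A sort for LT-HSC is meant to remove mature cells, and the share of such cells was not measured here. The same limma rule called 3.02% of all genes lower and 5.95% higher, the shares to set beside the counts of each list. By this rule, 3 of 15 T cell markers were lower and 1 higher, with a median difference of -0.27. Cd3d, a chain of the T cell receptor complex, differed by -1.48, -1.60 and -1.35 in pairs 1 to 3. Cd3e differed by -1.09, -0.33 and -2.57, with its smallest gap in pair 2 and its widest in pair 3. Cd2 differed by -1.49 on average and Cd3g by -1.27 (95% interval -2.56 to 0.03). Cd3g differed by -0.37, -0.32 and -3.12 in pairs 1 to 3, so its mean rested mostly on pair 3. Lat, an adaptor of the T cell receptor that megakaryocytes also use, was higher by 0.59. Of the 15 markers, 10 had a negative mean difference. Cd5 (-0.05) and Cd28 (0.01) hardly differed, and Zap70 (0.15) and Ubash3a (0.34) had positive differences without being called. The mean level over the 16 T cell genes measured, Trat1 included, was 4.21 to 4.38 in the NPMc+ arrays and 4.62 to 4.79 in the control arrays. Cd3d and Cd3e kept mean levels of 4.87 and 4.38 in NPMc+, above the filter level of 3.01, whereas Trat1 lay below it in the mean over all arrays. Lck, Cd247 and Tcf7 were not analysed here.

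NK cell markers had 5 of 12 lower and 2 higher, with a mean level of 4.55 to 4.74 in NPMc+ and 5.04 to 5.23 in control. Xcl1 and Klrd1 differed by -2.23 and -1.92, Klrk1 and Klre1 by -1.10 and -0.999. The 2 that were higher were the cytotoxic granule genes Gzmb (0.84) and Nkg7 (0.48). Other granule genes went the other way: Gzma was lower (-0.78), and Prf1 differed by -0.36 without being called. B cell markers had 9 of 11 lower and 0 higher, a mean level of 4.47 to 4.53 in NPMc+ and 5.69 to 5.75 in control, and even pair medians of -1.25, -1.21 and -1.20. They included Ebf1 (-2.17), Ms4a1 (-2.05), Blnk (-1.88), Vpreb3 (-1.54) and Cd79a (-1.24). In the same list Pax5 differed by -0.03 and Cd79b by -0.34, and neither was called. The neutrophil and monocyte list had 8 of 15 lower (mean level 8.34 to 8.92 in NPMc+ and 9.02 to 9.60 in control). Its medians were -1.41, -1.14 and -0.04 in pairs 1, 2 and 3. Erythroid markers had 5 of 7 lower (5.75 to 6.15 in NPMc+ and 6.46 to 6.86 in control). Megakaryocyte markers had 7 of 8 higher (6.37 to 6.56 in NPMc+ and 5.40 to 5.59 in control), and LT-HSC identity genes 9 of 14 higher (6.83 to 6.94 in NPMc+ and 6.22 to 6.32 in control). Some of these counts rested on single pairs or on dim genes. Without pair 1, T cell markers had 0 higher, NK cell markers 1 higher, neutrophil and monocyte markers 3 lower and megakaryocyte markers 4 higher. Without pair 2, NK cell markers had 1 higher and neutrophil and monocyte markers 2 lower. Without pair 3, T cell markers had 2 higher, NK cell markers 2 lower and megakaryocyte markers 3 higher. Among genes above the 50th percentile, NK cell markers had 3 lower and 1 higher. Whether these list genes were expressed in other cells or in the stem cells themselves was not tested, nor was any part of other cells in the Gimap differences.

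**Figure D4:**
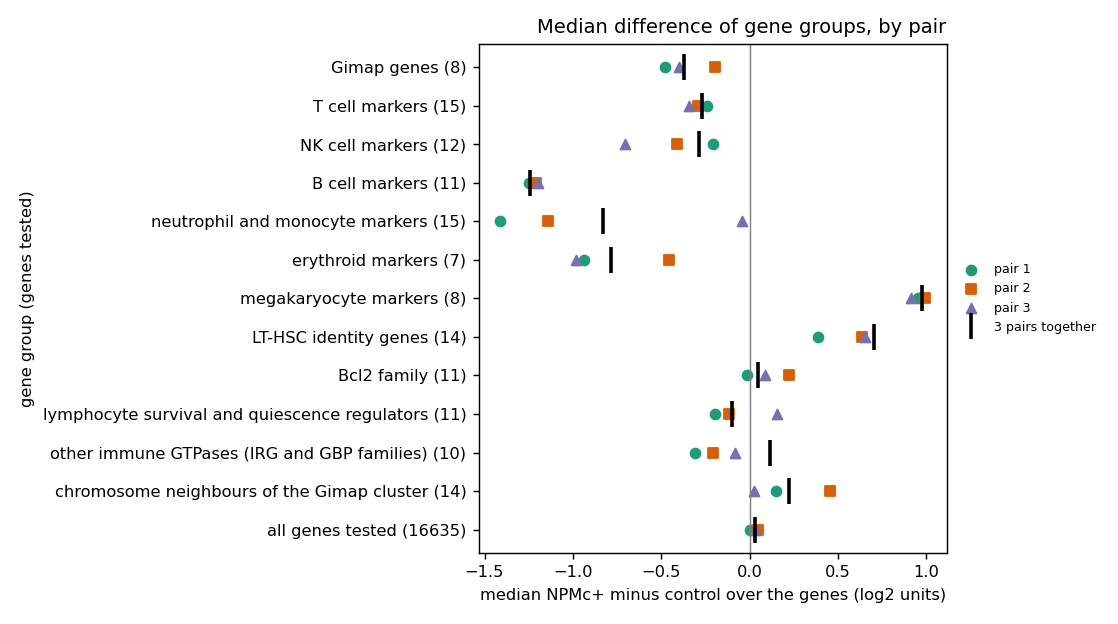
Median NPMc+ minus control in log2 units for the Gimap genes, for lists of cell type markers and related genes, and for all genes tested. Coloured points are the 3 pairs, and black bars are the median over the genes' mean differences. The Gimap medians were -0.48, -0.19 and -0.40 in pairs 1 to 3. Those of T cell markers were -0.24, -0.29 and -0.34, and those of NK cell markers -0.21, -0.41 and -0.71. Over the 3 pairs together the medians of these lists were -0.37, -0.27 and -0.29, against -1.24 for B cell markers.

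In the Bcl2 family, which holds binding partners of Gimap3 and Gimap5, 1 of 11 was higher and 0 lower by the same limma rule, near the shares of all genes (5.95% and 3.02%). The 1 was Bcl2 itself, at 0.43 (95% interval 0.0053 to 0.85), and it was no longer past that threshold when any 1 pair was left out, after quantile normalization, with an intensity trend in the prior or among genes above the 50th percentile. Of 11 regulators of lymphocyte survival and quiescence, 3 were lower and 1 higher. Ccr7 (-1.64), Il7r (-1.26), the receptor for a survival signal of resting lymphocytes, and Slfn2 (-1.25) were lower, and Stat5a was higher by 0.69. Others of this list were not called, among them Ets1 (-0.17), Klf2 (-0.12), Foxo1 (-0.10) and S1pr1 (0.37). Slfn2 differed by only -0.06 in pair 3. Of 10 other immune GTPases of the IRG and GBP families, which interferon induces, 2 were lower (Gbp8 at -0.87 and Gbp4 at -0.63) and 1 higher (Igtp at 0.80). Their median was 0.11, although the median within each pair was negative (-0.31, -0.21 and -0.083). Without pair 1 these GTPases had 1 lower and 2 higher, and without pair 2 they had 1 lower, while the survival regulators had 0 higher without pair 3. Among genes above the 50th percentile the GTPases had 0 lower and 1 higher.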

How the data were processed

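RNA of sorted LT-HSC was measured on 6 arrays (3 NPMc+ and 3 control pools). Per the labels' protocols, biotin-labelled cDNA was made from amplified total RNA, about 5 ng per pool. The values are log2 expression as deposited, made by the authors with RMA per the submitters' processing notes. Neither the RMA version nor a later step is named in the labels. The number of arrays limits the precision. The labels number the arrays 1 to 3 in each group, and same-numbered arrays share 1 mean in every probe set (deviations from the group means correlate at -1 in each pair), so the fit had the replicate number as a block.

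Of 41345 probe sets, 23521 had 1 gene symbol in the platform annotation and stood for 22180 genes, each read by its brightest probe set on average. The 8 Gimap genes had 9 such probe sets. Genes under 3.01 log2 units on average, the 25th percentile, were left out, and 16635 were tested with limma 3.58.1 (lmFit, eBayes, two-sided; 2 residual and 4.54 prior degrees of freedom) in R 4.3.3 (package data.table, version 1.17.8), adjusted by Benjamini-Hochberg. The script was tested on simulated data. Nothing says that the pools of a group came from separate transplants, so p-values measure only the spread of the differences within these pairs. List genes were named by a rule: up to 4 of each list with the largest difference at an unadjusted p under 0.05 (for the lists of lymphocyte, Bcl2 family, survival, GTPase and neighbour genes; other lists are given as counts), and Cd3d, Cd3e, Cd3g and Cd79a in any case. Lck was not analysed here. Mecom, Angpt1, Procr and the sex-linked genes were named outside this rule, with their values known, to describe the samples. So were Cd5, Cd28, Zap70, Ubash3a, Gzma, Gzmb, Nkg7, Prf1, Pax5, Cd79b, Foxo1, Klf2, Ets1 and S1pr1, to show other members of their lists. The members and lists were chosen with earlier results of these data known. Plots used matplotlib 3.10.9 (Python 3.11.15). Alternatives were a fit without the block, leaving out each pair, other filters on dim genes, quantile normalization, other variance priors and the mean of a gene's probe sets.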

Additional observations from a re-analysis of the deposited data

How the results depend on the processing

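The family's median difference, -0.37, was -0.42 after quantile normalization and -0.32 to -0.31 when 1 pair was left out. The filters, the priors and the block cannot move it while all 8 members are tested, and the mean of the probe sets left it the same. Without the replicate block, which counts degrees of freedom that the values do not hold, 2 of 8 Gimap genes passed the adjusted threshold in limma, Gimap3 (adjusted p 0.0112) and Gimap5 (0.0477), where 828 of all genes did. With the block 0 of 8 passed, and the adjusted limma p of Gimap3 was 0.199 to 0.507 over the alternatives that keep it. The count of members lower at an unadjusted p under 0.05 was 3 as reported, 4 without the replicate block (with Gimap6), 2 with an intensity trend in the prior (without Gimap5) and 1 to 3 when 1 pair was left out. The 1, without pair 1, was Gimap3, and that call held in every alternative. Gimap1 had a difference of -0.084 with the mean of its probe sets, and -0.12 to 0.37 when 1 pair was left out. For Gimap9 that range was -0.20 to 0.31. The causes of these shifts were not tested. With 3 pairs and a median SE of 0.20 log2 units over all genes, small differences were not detectable.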
